A study of Mus musculus with 12 samples.

Results

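The 9 genes described here code for the redox partners of hepatic cytochrome P450s and for enzymes of 2 other families of drug metabolism, the epoxide hydrolases and the flavin monooxygenases. They were taken by symbol from a list that sets no threshold on expression, although earlier results of these data were known when it was drawn up: Por, Cyb5a, Cyb5b, Cyb5r3, Pgrmc1, Ephx1, Ephx2, Fmo1 and Fmo5, which are 9 of the 17859 genes that the authors' transformed table holds. All 9 were found in both deposited tables, and all 9 passed the filter on low counts. Liver RNA was sequenced from 12 adult male mice in 4 groups of 3. WT corn oil mice carry the mouse receptors and received the vehicle, WT CITCO mice carry the mouse receptors and received CITCO, hCAR/hPXR CITCO mice are humanised for CAR and PXR, and Car KO/hPXR CITCO mice lack mouse Car and are humanised for PXR. The mutant mice were made on a C57BL/6NTac background, and the treated groups all received CITCO, an agonist of human CAR. The paper also cites in vitro work proposing that CITCO activates human PXR, which both humanised groups carry. Injections were intraperitoneal, once a day for 4 days, with sacrifice on day 5, and the sample labels give the CITCO dose as 10 mg/kg, whereas the methods also name a higher dose for short-term treatment. The vehicle libraries analysed here come from WT mice, so that for the humanised groups the effect of CITCO and that of genotype cannot be told apart in a comparison with corn oil.

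Microsomal P450s draw electrons from NADPH through P450 oxidoreductase (Por), a flavoprotein anchored in the endoplasmic reticulum that serves all of them. Cytochrome b5 can supply the second electron, and itself receives electrons from cytochrome b5 reductase or from Por. Epoxide hydrolases open the reactive epoxides that P450s form, and flavin monooxygenases oxidise nitrogen and sulphur atoms with their own flavin, without Por. In rodent liver Por and Ephx1 are classical members of the drug-inducible gene battery, and both have long been followed alongside Cyp2b genes in work on CAR.

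Of the 9 genes, only Por passed the test, and in 1 of the 6 comparisons: it was 1.92-fold higher in hCAR/hPXR mice given CITCO than in WT mice given corn oil. This is a difference in RNA. In its long-term tumour study, the paper found no change in Por protein across groups on immunoblots of pooled liver fractions. Those mice had received diethylnitrosamine and then CITCO in the diet, for far longer than here. The other 8 genes, Ephx1 included, had no adjusted p-value under 0.05 in any comparison. Expression is given as CPM, the count of a gene scaled to the effective size of its library so that libraries of unlike depth can be set side by side. Differences are log2 fold changes between group means with their standard errors, and a gene was called at an adjusted p-value under 0.05 in the quasi-likelihood test of edgeR, adjusted by the Benjamini-Hochberg method over the 8594 genes tested.

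The libraries held between 1167027 and 2341572 counts, so that a count of 3 stood for between 1.28 and 2.57 CPM before TMM scaling, and the precision of a low gene is limited by counting. The reads come from the 3' ends of transcripts. Levels of single genes are compared here between groups and not between genes. The P450 sums and ratios and the marker sums do combine counts of different genes, and they too are compared between groups. The mouse receptor genes were read as the labels give them: Nr1i2 (PXR) had between 100 and 199 counts in the 6 WT libraries and between 0 and 2 in the 6 humanised ones, and Nr1i3 (CAR) between 104 and 287 against between 0 and 6. The hepatocyte markers summed to between 24667 and 42089 CPM in all 12 libraries, with none of the 7 markers at 0. In a bulk sample, fewer cells of a type and less RNA per cell cannot be told apart.

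Por (ENSMUSG00000005514; GRCm38, chromosome 5, 135670033 to 135735326, plus strand) had 223, 214 and 206 CPM in the 3 WT corn oil mice and 354, 241 and 286 CPM in the 3 WT CITCO mice. In Car KO/hPXR mice it had 274, 244 and 289 CPM, and in hCAR/hPXR mice 412, 494 and 325 CPM. Every mouse given CITCO was above every mouse given corn oil, and the 3 hCAR/hPXR mice were also above the 3 Car KO/hPXR mice, whereas the lowest hCAR/hPXR mouse lay below the highest WT CITCO mouse. The group means were 214 ± 8.60 CPM (SD, n = 3) for WT corn oil, 269 ± 23.1 for Car KO/hPXR, 294 ± 56.9 for WT CITCO and 410.4 ± 84.4 for hCAR/hPXR. Behind these values were between 292 and 854 counts per library. A long non-coding gene (Gm43091) and a processed pseudogene (Gm16061) are annotated on the opposite strand within the Por locus, and reads of such neighbours cannot be told apart from those of Por unless the counting used strand, which is not given in the sources used here.

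**Figure D1:**
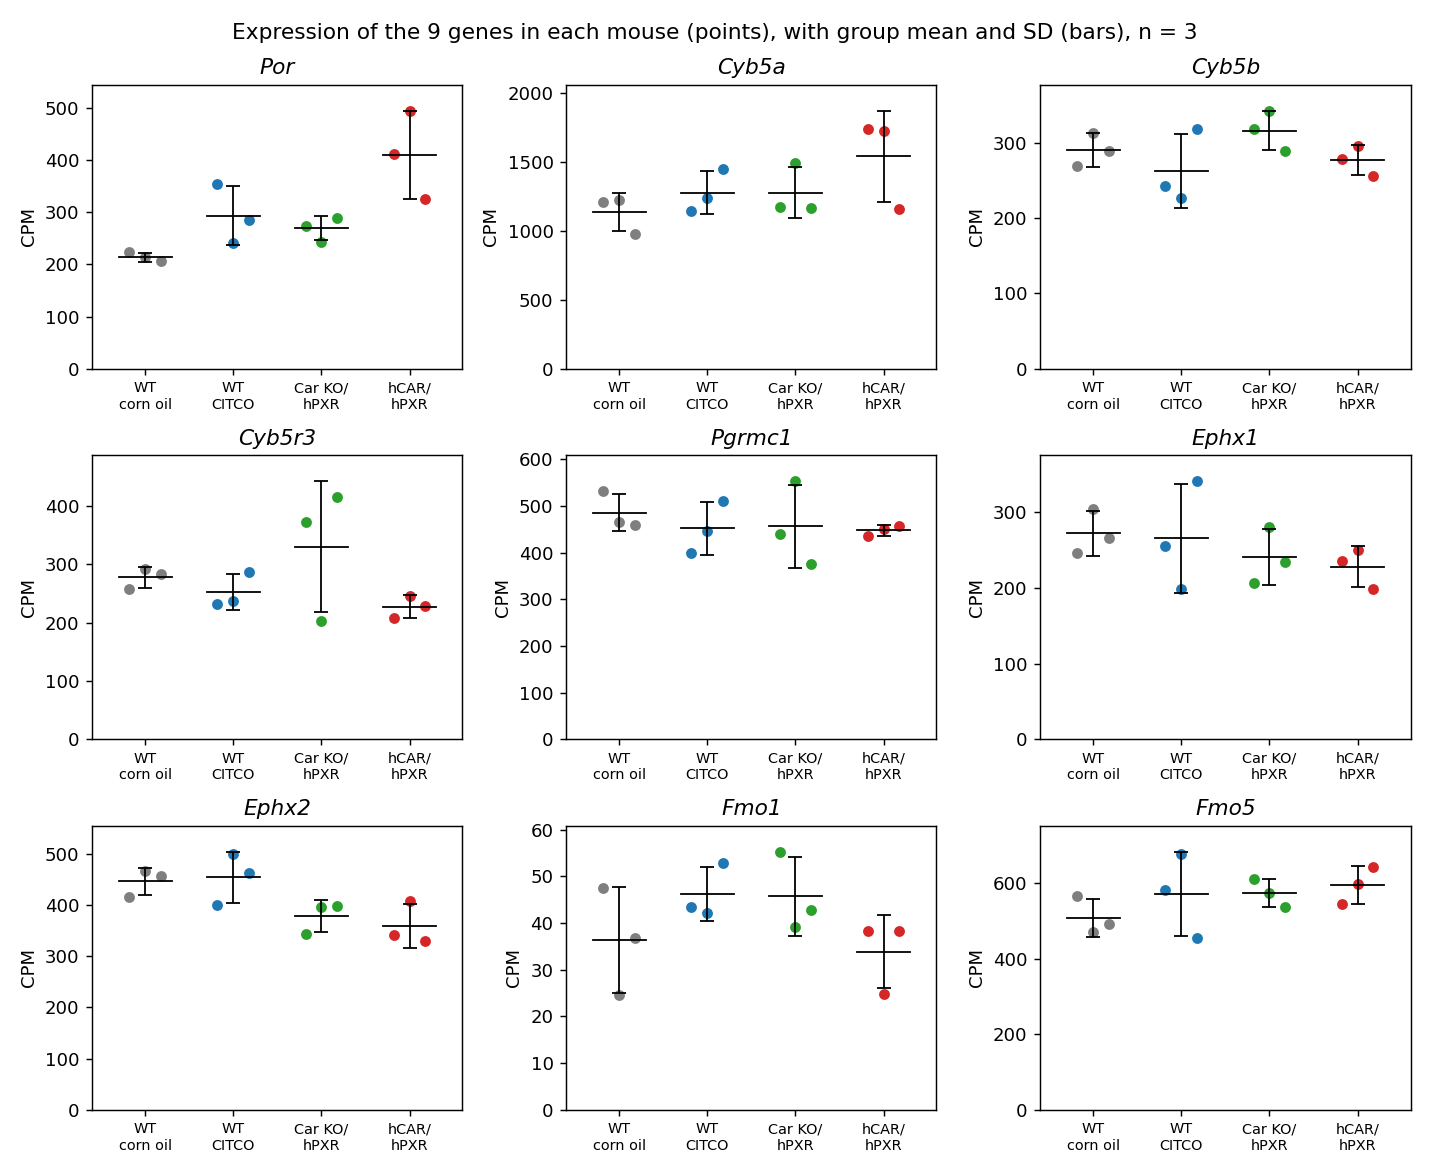
Expression of each of the 9 genes in CPM (vertical axes, from 0) in the 4 groups (horizontal axes); points are single mice, and bars give the mean and SD of 3 mice. Por stands highest in the hCAR/hPXR group, at 325 to 494 CPM against 206 to 223 CPM in the WT corn oil group, while for Cyb5a, Cyb5b, Ephx1 and Fmo5 the groups overlap in all 6 comparisons.

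The difference in Por between hCAR/hPXR CITCO and WT corn oil mice was 0.94 ± 0.17 on the log2 scale (95% interval of the fold change 1.49 to 2.47, adjusted p = 0.00962). In that comparison 0.989% of the genes tested were called, 61 higher and 24 lower, and 1 of the 9 genes described here was among them. Por remained called in 11 of 13 alternative analyses. It was lost without WT corn oil replicate 2, with a log2 fold change of 0.93 and an adjusted p of 0.0683, and without WT corn oil replicate 3, with 0.91 and 0.0651. Over all alternatives the log2 fold change ranged from 0.78 to 1.08 and the adjusted p from 4.27e-05 to 0.0683.

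The steps between these extremes did not pass the test. From corn oil to CITCO within WT mice, Por differed by 0.46 ± 0.17 (95% interval 0.09 to 0.82, adjusted p = 0.387). For hCAR/hPXR over WT CITCO mice the difference was 0.48 ± 0.17 (0.12 to 0.84, adjusted p = 0.365). Over Car KO/hPXR mice, the hCAR/hPXR group differed by 0.61 ± 0.17 (0.25 to 0.97, adjusted p = 0.141), and this comparison was called by DESeq2's Wald test (log2 fold change 0.59, adjusted p = 0.0438), though in none of the other 12 alternatives. Car KO/hPXR mice lay between both WT groups, with a log2 fold change of -0.13 ± 0.17 against WT CITCO (adjusted p = 0.885) and 0.33 ± 0.17 against WT corn oil (adjusted p = 0.887). In ascending order the groups were therefore WT corn oil, Car KO/hPXR, WT CITCO and hCAR/hPXR. No pair of neighbours was called after adjustment over all genes tested. Before adjustment, edgeR's p was 0.0746 for Car KO/hPXR over WT corn oil and 0.475 for Car KO/hPXR over WT CITCO mice. It was 0.0113 for hCAR/hPXR over WT CITCO mice. These comparisons share groups and are not independent of each other.

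In the other 5 comparisons none of the 9 genes was called, against 0.407% of genes tested for hCAR/hPXR over WT CITCO mice, 0.256% for Car KO/hPXR over WT CITCO mice, 0.582% for hCAR/hPXR over Car KO/hPXR mice, 0.233% for WT CITCO over WT corn oil mice and 0.0465% for Car KO/hPXR CITCO over WT corn oil mice. An unadjusted p under 0.05 was found for 2, 0, 2, 1 and 0 of the 9 genes in those 5 comparisons, beside 8.81%, 9.30%, 10.6%, 9.13% and 5.60% of all genes tested, and DESeq2 called 1 of the 9, Por for hCAR/hPXR over Car KO/hPXR mice.

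**Figure D2:**
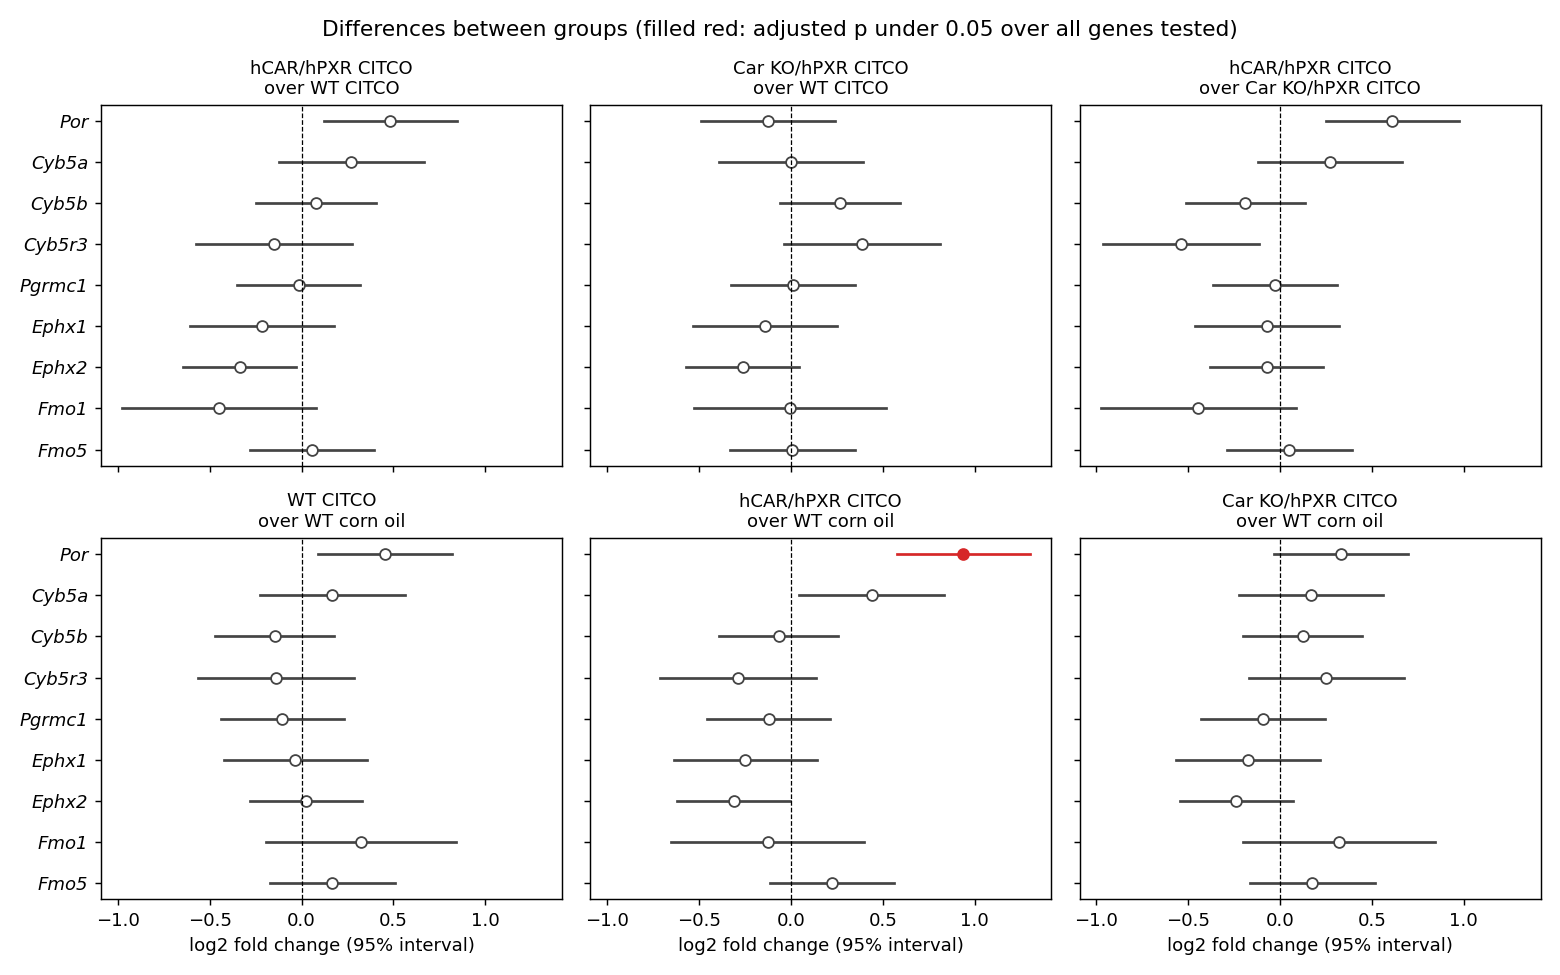
Log2 fold change (horizontal axes) of each gene (vertical axes) in the 6 comparisons, with points for the estimate and lines for the 95% interval; filled red marks an adjusted p under 0.05. The single filled point is Por between hCAR/hPXR CITCO and WT corn oil mice, at 0.94, and for Cyb5b, Pgrmc1, Ephx1, Fmo1 and Fmo5 the interval spans 0 in all 6 comparisons.

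Sequence upstream of a RefSeq transcription start was held for 5 of the 9 genes (Por, Pgrmc1, Ephx1, Cyb5b and Fmo5) in the RefSeq promoter table used (GRCm38.p6). It is shown for 3 of them: Por, the gene that was called; Pgrmc1, a hemoprotein partner of P450s whose level differed little between groups; and Ephx1, the other classical inducible gene, which was not called. Capitals mark matches, on either strand, to 3 core promoter motifs. The GC box was searched as GGGCGG, which appears as its reverse complement when it lies on the opposite strand. The TATA box was searched as TATAAA. The CCAAT box was searched by its own letters, and no marked matches overlap. AGGTCA and AGTTCA, core letters of elements bound by nuclear receptors, were searched as well. For Por, the stretch printed is chr5:135688895-135689035 (plus strand), since the last 109 of the 250 bases before the RefSeq start lie in an exon of another annotated Por transcript. For Pgrmc1 it is chrX:36597943-36598192 (plus strand) and for Ephx1 chr1:181017570-181017819 (minus strand), neither of which overlaps an annotated exon. The Por and Ephx1 stretches lie within the annotated span of their genes, so the start used there is not the outermost annotated one.
Por: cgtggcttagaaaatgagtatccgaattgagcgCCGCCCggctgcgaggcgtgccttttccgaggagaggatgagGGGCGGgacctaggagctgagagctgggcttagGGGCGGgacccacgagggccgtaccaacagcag
Pgrmc1: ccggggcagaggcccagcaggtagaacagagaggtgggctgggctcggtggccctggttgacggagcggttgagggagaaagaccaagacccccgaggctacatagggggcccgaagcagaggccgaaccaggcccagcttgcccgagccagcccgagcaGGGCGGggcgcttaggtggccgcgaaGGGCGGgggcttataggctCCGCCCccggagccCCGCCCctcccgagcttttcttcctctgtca
Ephx1: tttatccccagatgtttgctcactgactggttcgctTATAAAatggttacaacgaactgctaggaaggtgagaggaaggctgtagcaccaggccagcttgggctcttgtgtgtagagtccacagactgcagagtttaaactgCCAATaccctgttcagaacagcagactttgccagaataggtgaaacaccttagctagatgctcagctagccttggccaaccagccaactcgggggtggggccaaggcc

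The full window of 250 bases held 4 GC boxes for Por and 4 for Pgrmc1, with 65.6% and 69.6% G and C, against a median of 52.4% over all 32851 windows. Ephx1 had no GC box, but 1 match to TATAAA and 1 to CCAAT, and 51.2% G and C. Its TATAAA match lies near the end of the window that is farthest from the start. Neither AGGTCA nor AGTTCA was found in the windows of these 3 genes. Over all 32851 windows, 32.7% held GGGCGG, 12.4% TATAAA and 33.8% CCAAT, while 4607 windows held AGGTCA and 3891, or 11.8%, AGTTCA. These are matches of letters in a short window and not binding sites. The 2 genes with the most GC boxes thus included the one that was called and one whose 95% intervals, over the 6 comparisons, stayed between -0.46 and 0.35.

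The 3 genes whose log2 expression was most like that of Por over the 12 libraries, among 3231 genes with a mean of at least 5 log2 CPM, were Ces1d (Pearson's r = 0.864), Ptp4a1 (0.852) and Rps4x (0.847). Ces1d, a hepatic carboxylesterase, had group means of 127 CPM in WT corn oil, 157 in Car KO/hPXR, 212 in WT CITCO and 253 in hCAR/hPXR mice, which is the order of the groups for Por. Ptp4a1, a protein tyrosine phosphatase, had 123, 148, 164 and 222 CPM in the same order. For Rps4x, a ribosomal protein gene with similar copies elsewhere in the genome, the means were 162, 205, 193 and 257 CPM. The libraries fall into 4 groups and share their depth and composition, so these values describe likeness of pattern alone.

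Alas1, the rate-limiting enzyme of heme synthesis and a CAR and PXR target that supplies the prosthetic group of P450s, had 186, 51.5 and 129 CPM in corn oil mice and 477, 268 and 488 CPM in WT CITCO mice. In hCAR/hPXR mice it had 375, 418 and 245 CPM and in Car KO/hPXR mice 290, 262 and 239 CPM, so all 3 CITCO groups lay above the corn oil group. It was called in WT CITCO over WT corn oil mice (log2 fold change 1.73 ± 0.32, adjusted p = 0.0264) and in hCAR/hPXR CITCO over WT corn oil mice (1.49 ± 0.32, adjusted p = 0.0291), while for Car KO/hPXR CITCO over WT corn oil mice the difference was 1.09 ± 0.32 (adjusted p = 0.491). Cyp2b10, the reference target of CAR, had between 0 and 3 counts in the corn oil libraries, between 2 and 6 in WT CITCO, between 0 and 3 in Car KO/hPXR and between 184 and 288 in hCAR/hPXR libraries.

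To set the partners beside the enzymes they serve, the counts of 63 detected P450 genes of families Cyp1 to Cyp4 were summed in each library. The sum was 13984 ± 1867 CPM (SD, n = 3) in WT corn oil, 15354 ± 1123 in WT CITCO, 14595 ± 2204 in Car KO/hPXR and 18603 ± 1074 in hCAR/hPXR mice, where all 3 libraries were above the other 9. Cyp2c29 and Cyp3a11, which the paper reports as higher in hCAR/hPXR mice, are part of this sum. Their means were 3175 and 3628 CPM in hCAR/hPXR and 836 and 896 CPM in WT CITCO mice. The higher sum therefore does not show a rise across the 63 genes. For each Por count there were 72.4, 60.3 and 62.8 P450 counts in the corn oil libraries and 39.7, 65.7 and 56.5 in the WT CITCO libraries. The ratio was 47.0, 70.1 and 47.8 in Car KO/hPXR and 46.8, 38.8 and 53.4 in hCAR/hPXR libraries. All 3 hCAR/hPXR ratios were below the 3 of corn oil, while both other CITCO groups overlapped with hCAR/hPXR. The ratios of hCAR/hPXR and corn oil mice, which differ in genotype and treatment, were not tested against each other.

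For hCAR/hPXR over WT CITCO mice, the P450 to Por ratio differed by -0.20 on the log2 scale (two-sided exact permutation test, p = 0.4, adjusted p = 0.8 over 8 tests). Taken over Car KO/hPXR mice instead, it differed by -0.23 (exact p = 0.4, adjusted p = 0.8). WT CITCO differed from WT corn oil by -0.30 (exact p = 0.3, adjusted p = 0.8). With 3 mice against 3 the smallest p this test can give is 0.1. P450 counts per Cyb5a count averaged 12.4 ± 1.57 in corn oil, 12.1 ± 0.827 in WT CITCO, 11.4 ± 0.419 in Car KO/hPXR and 12.4 ± 2.24 in hCAR/hPXR libraries, with exact p-values between 0.3 and 1.0 in the 4 comparisons tested.

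**Figure D3:**
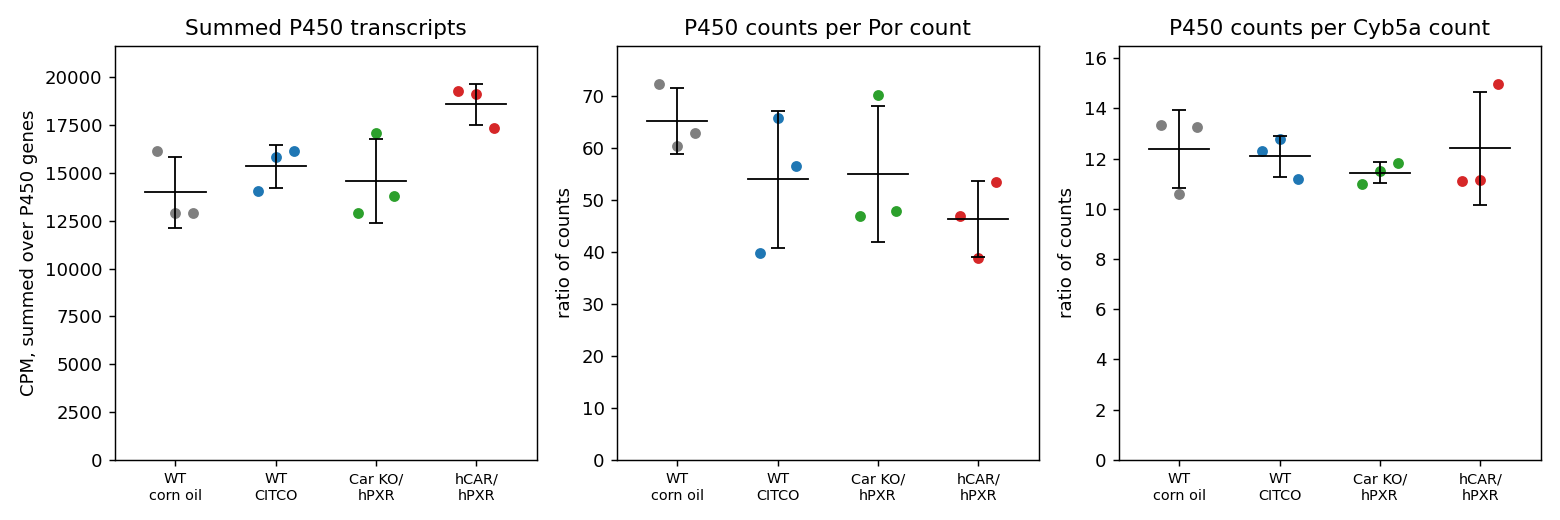
Left, CPM summed over the P450 genes; middle and right, P450 counts per Por count and per Cyb5a count (vertical axes, from 0), in the 4 groups (horizontal axes), with points for single mice and bars for the mean and SD of 3. The P450 sum, of which Cyp2c29 and Cyp3a11 are part, is highest in hCAR/hPXR mice (18603 CPM). The ratio to Por is 65.2 in corn oil and 46.3 in hCAR/hPXR mice, and the ratio to Cyb5a is 12.4 in both. Ratios of corn oil and hCAR/hPXR mice were not tested against each other.

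Among the cytochrome b5 genes, Cyb5a (ENSMUSG00000024646), the microsomal cytochrome b5, had 1211, 1219 and 976 CPM in corn oil mice and 1739, 1720.0 and 1159 CPM in hCAR/hPXR mice. The WT CITCO mice had 1144, 1239.8 and 1444 CPM and the Car KO/hPXR mice 1172, 1487 and 1168 CPM. The first 2 hCAR/hPXR mice were above all other mice, but the third lay within the corn oil range, and the groups overlapped. The difference between hCAR/hPXR CITCO and WT corn oil mice was 0.44 ± 0.19 (95% interval 0.05 to 0.83, adjusted p = 0.394), and that between hCAR/hPXR and WT CITCO mice 0.27 ± 0.19 (-0.12 to 0.66, adjusted p = 0.729). Over the 13 alternatives the first of these ranged from 0.34 to 0.60 with no call. An antisense gene (Gm16146) is annotated at the Cyb5a locus.

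Cyb5b, the cytochrome b5 of the outer mitochondrial membrane (ENSMUSG00000031924; chromosome 8, 107150640 to 107187471, plus strand), kept to between 226 and 342 CPM in all 12 mice. Its group means were 290.3 ± 22.2 in WT corn oil, 262 ± 49.4 in WT CITCO, 316 ± 26.2 in Car KO/hPXR and 277 ± 19.9 CPM in hCAR/hPXR mice. The 4 groups overlapped in each of the 6 comparisons, and its log2 fold changes lay between -0.19 and 0.27.

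Cyb5r3, the reductase that passes electrons from NADH to cytochrome b5 (ENSMUSG00000018042; chromosome 15, 83153494 to 83172592, minus strand), was the least even of these genes among Car KO/hPXR mice, with 372, 203 and 416 CPM. It had 258, 292 and 284 CPM in corn oil mice, 232, 238 and 288 in WT CITCO mice and 208, 246 and 228 in hCAR/hPXR mice. Replicates 1 and 3 of Car KO/hPXR were thus above all other mice and replicate 2 below them. The log2 fold change of hCAR/hPXR over Car KO/hPXR mice was -0.54 ± 0.20 (95% interval -0.96 to -0.11, adjusted p = 0.327), and it was called in 1 of 13 alternatives, without Car KO/hPXR replicate 2 (-0.80, adjusted p = 0.0405). An antisense gene (Gm49463) is annotated at this locus as well. Pgrmc1, a heme-binding membrane protein that associates with P450s (ENSMUSG00000006373; chromosome X, 36598206 to 36606079), had group means between 447 and 486 CPM and log2 fold changes between -0.12 and 0.01.

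Ephx1, the microsomal epoxide hydrolase (ENSMUSG00000038776; chromosome 1, 180976210 to 181020904, minus strand), had 247, 304 and 266 CPM in corn oil mice and 256, 199 and 341 CPM in WT CITCO mice. It had 207, 281 and 235 CPM in Car KO/hPXR mice and 236, 250.5 and 199 CPM in hCAR/hPXR mice, so that the groups overlapped throughout. The hCAR/hPXR group was not above the others: its log2 fold change was -0.21 ± 0.19 over WT CITCO (95% interval -0.61 to 0.18, adjusted p = 0.793) and -0.25 ± 0.19 over WT corn oil (-0.64 to 0.14, adjusted p = 0.707). The upper bound of the first corresponds to a 1.13-fold difference. A pseudogene (Gm36961) on the same strand overlaps the Ephx1 locus, and the counts of either gene could hold reads of the other.

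Ephx2, the soluble epoxide hydrolase, which converts fatty acid epoxides to diols (ENSMUSG00000022040; chromosome 14, 66084374 to 66124500, minus strand), had 417, 466 and 458 CPM in corn oil mice and 401, 499 and 463 CPM in WT CITCO mice. In Car KO/hPXR mice it had 342, 396 and 398 CPM and in hCAR/hPXR mice 341, 408 and 329 CPM. All 6 humanised mice were thus below all 3 corn oil mice, and below the WT CITCO mice apart from 1 hCAR/hPXR mouse that lay above the lowest of them. The log2 fold change of hCAR/hPXR mice was -0.34 ± 0.15 over WT CITCO (95% interval -0.64 to -0.03, unadjusted p = 0.0342, adjusted p = 0.507 by edgeR) and -0.31 ± 0.15 over WT corn oil (-0.62 to -0.0037, unadjusted p = 0.0476, adjusted p = 0.452 by edgeR). That of Car KO/hPXR mice was -0.26 ± 0.15 over WT CITCO and -0.24 ± 0.15 over WT corn oil (adjusted p = 0.617 and 0.929). None of these passed the test, in the main analysis or in any alternative, although all kept their sign.

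Of the flavin monooxygenases, Fmo5 (ENSMUSG00000028088; chromosome 3, 97628804 to 97655282, plus strand) had group means of 508 ± 50.3 CPM in WT corn oil, 571 ± 111 in WT CITCO, 574 ± 36.4 in Car KO/hPXR and 594 ± 49.4 in hCAR/hPXR mice, and the groups overlapped in every comparison. Its log2 fold change of hCAR/hPXR CITCO over WT corn oil mice was 0.23 ± 0.16 (95% interval -0.11 to 0.56, adjusted p = 0.684). Fmo1 (ENSMUSG00000040181; chromosome 1, 162829561 to 162866610, minus strand) had between 35 and 106 counts per library, and is the least precise of the 9 genes, with standard errors of 0.25. It had 38.3, 24.9 and 38.4 CPM in hCAR/hPXR mice, below the 43.5, 42.2 and 52.8 CPM of WT CITCO mice and the 55.3, 39.2 and 42.7 CPM of Car KO/hPXR mice, but within the 24.7 to 47.5 CPM of corn oil mice. The differences from WT CITCO and Car KO/hPXR mice were -0.45 ± 0.25 in each case, with adjusted p-values of 0.643 and 0.573.

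Counted over all 9 genes, groups did not overlap for 1 gene between hCAR/hPXR and WT CITCO mice (Fmo1, lower), where 13.6% of all genes tested did so, and for 1 gene between Car KO/hPXR and WT CITCO mice (Ephx2, lower), where 14.2% did. For hCAR/hPXR over Car KO/hPXR mice it was 2 genes (Por higher, Fmo1 lower) beside 15.1%, and between WT CITCO and WT corn oil mice 1 gene (Por, higher) beside 14.7%. Between hCAR/hPXR CITCO and WT corn oil mice it was 4 genes (Por higher, and Cyb5r3, Pgrmc1 and Ephx2 lower) beside 16.2%, and between Car KO/hPXR CITCO and WT corn oil mice 2 (Por higher, Ephx2 lower) beside 11.6%. The median log2 fold change of the 9 genes was -0.016 between hCAR/hPXR and WT CITCO mice, where the median over all genes was 0.013, and -0.12 between hCAR/hPXR CITCO and WT corn oil mice, where it was also 0.013.

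Of 11 other electron transfer genes tested, among them Pgrmc2, the ferredoxin Fdx1 and its reductase Fdxr, none passed the test in any of the 6 comparisons, and their medians lay between -0.19 and 0.079. Of 10 enzymes that take electrons from cytochrome b5 or from Por, none passed the test. They belong to fatty acid desaturation and sterol synthesis, apart from Cmah, which hydroxylates sialic acid. All 10 had higher means in Car KO/hPXR than in WT CITCO mice (median 0.53, against -0.0039 over all genes), and all 10 had lower means in WT CITCO than in WT corn oil mice (median -0.28, against -0.00028 over all genes). The genes were measured in the same mice and share pathways, so their common direction is not 10 separate results. The differences between Car KO/hPXR and WT CITCO mice were widest for Scd1, the stearoyl-CoA desaturase (1.95 ± 0.47, adjusted p = 0.0984), followed by Dhcr7, a sterol reductase (0.82 ± 0.27, adjusted p = 0.278), and Sc5d, a sterol desaturase (0.77 ± 0.19, adjusted p = 0.0984). Scd1 ranged from 642 to 2595 CPM among WT CITCO mice and from 3858 to 6755 CPM among Car KO/hPXR mice. For comparison, Cyb5b and Cyb5r3 differed by 0.27 ± 0.15 and 0.39 ± 0.20 between these groups, and Cyb5a by less than its standard error of 0.19. Of the other epoxide hydrolase genes looked up, Lta4h passed the filter and was not called, and Ephx4 had 0 counts in all 12 libraries.

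Of 16 CAR and PXR reference targets tested, 8 were called higher in hCAR/hPXR than in WT CITCO mice, with a median log2 fold change of 1.55 over the 16. This list was chosen with earlier results of these data known. Several of its genes, among them Cyp2b10, Cyp2c29, Cyp3a11 and Ces2a, are reported by the paper as higher in the same comparison. Its number of calls and its median there follow in part from that choice. Cyp3a11, the major steroid-hydroxylating P450 of this list, was 4.05-fold higher (log2 fold change 2.02 ± 0.26, adjusted p = 0.000404), and Ces2a, a carboxylesterase, 2.12-fold higher (1.08 ± 0.20, adjusted p = 0.0138). In hCAR/hPXR CITCO over WT corn oil mice 7 of the 16 were called higher, in hCAR/hPXR over Car KO/hPXR mice 3 (Cyp2b10, Cyp2c29 and Cyp2c55), in WT CITCO over WT corn oil mice 1, which was Alas1, and in both other comparisons none. None of 8 NRF2 targets was called in any comparison, and of 9 PPAR alpha targets 1, Cyp4a10, was called, being lower in hCAR/hPXR CITCO than in WT corn oil mice (-2.09 ± 0.41, adjusted p = 0.0147).

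**Figure D4:**
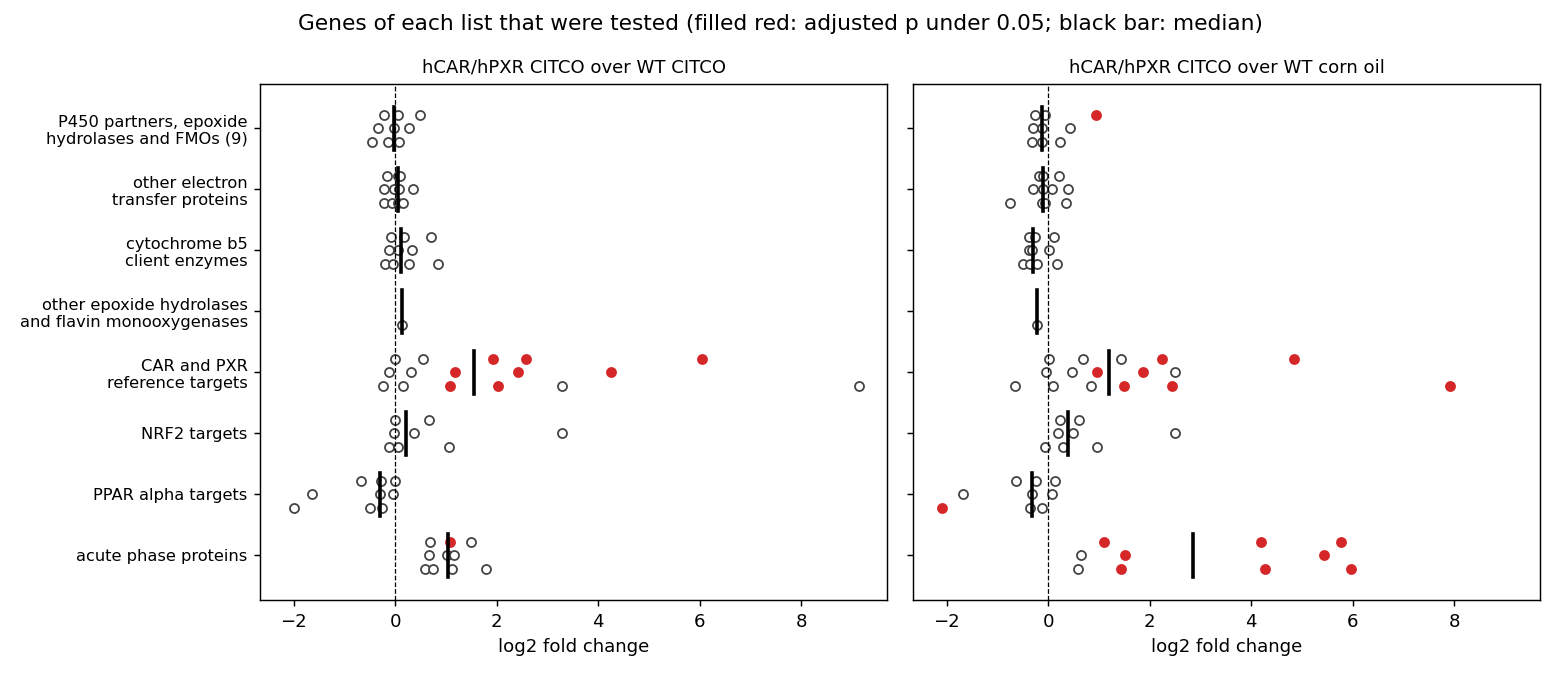
Log2 fold change (horizontal axes) of the genes tested in each list (vertical axis) between hCAR/hPXR CITCO and WT CITCO mice (left) and WT corn oil mice (right); filled red marks an adjusted p under 0.05 and black bars the median of a list. The 9 genes lie between -0.45 and 0.48 on the left and between -0.31 and 0.94 on the right, where Por is the filled point. Of the 16 CAR and PXR targets, a list chosen with earlier results of these data known, 8 and 7 are filled.

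Signs of inflammation were seen in the comparison in which Por was called, and also in comparisons in which it was not. Of 10 acute phase genes, 8 were called higher in hCAR/hPXR CITCO than in WT corn oil mice, 4 in hCAR/hPXR over Car KO/hPXR mice (Saa2, Saa4, Orm2 and Hp), 2 in WT CITCO over WT corn oil mice (Saa1 and Saa2), 1 in hCAR/hPXR over WT CITCO mice (Saa4) and none in the comparisons of Car KO/hPXR with WT mice. The 3 neutrophil markers summed to between 33.6 and 49.2 CPM in hCAR/hPXR libraries and to between 2.81 and 10.9 CPM in the other 9. S100a8, a neutrophil calcium-binding protein, was called higher in hCAR/hPXR mice in all 3 comparisons with the other groups (9.54-fold over WT corn oil, adjusted p = 0.00144), and S100a9 over WT corn oil. The 6 Kupffer cell markers summed to between 292 and 395 CPM in hCAR/hPXR and between 194 and 248 CPM in corn oil libraries. Cd5l made up the largest part of these sums, with means of 230 and 131 CPM. By log2 fold change 5 of the 6 were higher in hCAR/hPXR CITCO than in WT corn oil mice, but only Marco was called. Clec4f was lower, with means of 40.9 CPM in hCAR/hPXR and 49.0 CPM in corn oil mice. Alas2, of the red blood cell markers, was called lower in the same comparison, and no marker of hepatocytes, cholangiocytes, stellate cells, endothelial cells, lymphocytes or either hepatocyte zone was called in any. The hepatocyte markers summed to 24667, 26475 and 42089 CPM in hCAR/hPXR replicates 1, 2 and 3, and the last of these was also the one with the lowest Por and Cyb5a of its group. Without that library the Por difference from WT corn oil was 1.08 (adjusted p = 0.00711), without replicate 1 it was 0.93 (adjusted p = 0.0443) and without replicate 2 it was 0.78 (adjusted p = 0.0419). The part of inflammation or cell composition in the Por result was not tested.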

How the data were processed

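Liver RNA of 12 mice was made into 3' end libraries (QuantSeq). The authors trimmed reads with Trimmomatic, aligned them to the Ensembl annotation of GRCm38 with STAR 2.5.2, and deposited expected counts per gene from RSEM 1.3, not normalized, for 51912 genes; 13.8% of detected values were not whole numbers within 0.001, since RSEM divides reads that fit several genes. They also deposited log2-like values from DESeq2's variance-stabilising transformation for 17859 genes. Groups were taken from the sample labels. Nothing in the labels beyond the mouse numbers describes the replicates. The edgeR p-values set each group difference against the spread between mice of the same group, estimated over all 4 groups.

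Expected counts were rounded, filtered by edgeR's expression filter and normalized by TMM, and 8594 genes were tested by edgeR 4.0.16 (R 4.3.3) with the quasi-likelihood test, two-sided, on all 12 libraries with 1 mean per group. Genes were called at a Benjamini-Hochberg adjusted p under 0.05, the rule of the study's methods. Standard errors follow from each log2 difference and its F statistic. P450 ratios were compared by exact permutation of libraries. The 9 genes and the gene lists were chosen with earlier results of these data known. Named genes are the 9 members in all comparisons, list genes that were called (up to 6 per list and comparison), Cyp2b10, Cyp2c29 and Cyp3a11, and the 3 genes most correlated with a called member; Scd1, Dhcr7, Sc5d, Cmah, Lta4h and Ephx4 were named after their values were seen. Coordinates are from GENCODE M21 (GRCm38), a different release from the authors' annotation, and promoter sequences from RefSeq. Alternatives were other size factors, DESeq2 1.42.0, limma 3.58.1 on the deposited log2 values, other filters, fits of the groups compared, the replicate number as a block, each library left out in turn, and a fold change over 1.5 as a further condition.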

Additional observations from a re-analysis of the deposited data

How the results depend on the processing

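Each gene's difference was recomputed under 13 alternatives, 702 values in all for 54 pairs of gene and comparison, of which 668 kept their sign and their side of the threshold. Calls were lost for Por between hCAR/hPXR CITCO and WT corn oil mice without WT corn oil replicate 2 or 3 (the number called then fell from 1 to 0), and gained for hCAR/hPXR over Car KO/hPXR mice for Por by DESeq2 and for Cyb5r3 without Car KO/hPXR replicate 2 (1 in place of 0 each). Adding a fold change over 1.5 to the rule changed no call of the 9. The sign changed in 30 values of 17 pairs, whose main differences were at most 0.21 in size, and none was called afterwards. The causes were not tested.

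Leaving out each library gave the following ranges for those pairs. Between hCAR/hPXR and WT CITCO mice: Pgrmc1 -0.10 to 0.078, Fmo5 -0.087 to 0.18, Cyb5b -0.035 to 0.24 and Ephx1 -0.40 to 0.0022. Between Car KO/hPXR and WT CITCO mice: Por -0.26 to 0.029, Pgrmc1 -0.15 to 0.13, Cyb5a -0.12 to 0.096, Fmo5 -0.14 to 0.14, Ephx1 -0.32 to 0.076 and Fmo1 -0.17 to 0.10, and for Fmo1 also 0.00099 without the low-count filter. For hCAR/hPXR over Car KO/hPXR mice: Pgrmc1 -0.15 to 0.13, Fmo5 -0.011 to 0.10 and Ephx1 -0.17 to 0.047. Between WT CITCO and WT corn oil mice: Ephx2 -0.038 to 0.11 and Ephx1 -0.25 to 0.15. Against WT corn oil, Fmo1 in hCAR/hPXR mice ranged from -0.33 to 0.12 and Pgrmc1 in Car KO/hPXR mice from -0.25 to 0.028.

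The number of all genes called moved more. In the order hCAR/hPXR over WT CITCO, Car KO/hPXR over WT CITCO, hCAR/hPXR over Car KO/hPXR, WT CITCO over corn oil, hCAR/hPXR over corn oil and Car KO/hPXR over corn oil, it was 35, 22, 50, 20, 85 and 4 in the main analysis, 184, 227, 233, 179, 261 and 95 without the low-count filter, and 68, 75, 111, 44, 146 and 12 by DESeq2. A fit of the groups compared gave 40 for Car KO/hPXR over WT CITCO. Leaving out each library gave 17 to 32, 5 to 58, 10 to 58, 6 to 54 and 25 to 91 in the first 5 comparisons.

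Cyp2b10, Cyp2c29, Cyp3a11, Cyp3a25 and Cyp3a59 were picked as P450s already known to be higher in hCAR/hPXR mice, so that a fall of the hCAR/hPXR ratios without them follows from the choice. Without these 5, the P450 to Por ratio of Car KO/hPXR over WT CITCO became -0.093, and the P450 to Cyb5a ratio -0.54 for hCAR/hPXR over WT CITCO and -0.34 for hCAR/hPXR over Car KO/hPXR mice. Leaving out each library, the Por ratio of Car KO/hPXR over WT CITCO ranged from -0.18 to 0.19, and the Cyb5a ratio from -0.12 to 0.098 for hCAR/hPXR over WT CITCO, from -0.040 to 0.18 with Car KO/hPXR as the base and from -0.14 to 0.029 for WT CITCO over WT corn oil mice.

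Same-numbered mice did not deviate together (r between -0.057 and 0.075 over 18 pairs, 0 of them over 0.1). These values show no shared deviation, but cannot tell whether mice of the same number were handled together. With the replicate block Por remained called between hCAR/hPXR CITCO and WT corn oil mice (0.94, adjusted p = 0.0118 by edgeR), and the block changed no other call of the 9 genes. With 3 mice per group and between 1167027 and 2341572 counts in each library, the precision of each difference is that of its 95% interval.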
